A study of Mus musculus with 5 samples.

Results

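The genes described here encode the T cell receptor complex and the molecules that work beside it on the T cell surface. They are the 3 CD3 chains (Cd3e, Cd3d and Cd3g), the co-receptors (Cd4, Cd8a and Cd8b1), the kinase Lck, the adaptor Lat, and the surface proteins Cd5 and Thy1. They were chosen by symbol from the probe annotation, with every probe set of each gene. Of the 10 listed genes, 9 had probe sets, 14 in all, out of 18193 genes with 34945 probe sets that carry 1 gene symbol. Lck was not analysed here.

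The study profiled bone marrow cells enriched for B220 with magnetic beads from FVB mice at 4 weeks of age. B220 is a form of CD45 carried by developing B cells. There were 3 arrays of IKKαK44A/K44A mice (KA/KA), in which both copies of IKKα are knocked in as a form without kinase activity, and 2 of wild-type (WT) littermates. The cells had no treatment. IKKα acts in NF-κB signalling, and by the series title the study asks how its signalling shapes early B cell formation. The knock-in changes the kinase in every cell type and not in B cells alone. The labels do not say whether an array held 1 animal or a pool, so the p-values measure only the spread between these arrays. The transcript of the mutated gene was not analysed here.

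In a T cell, the antigen-binding receptor chains have almost no cytoplasmic part and signal through the CD3 and zeta chains that assemble with them. CD4 or CD8 binds the same MHC molecule from the side and brings Lck, which phosphorylates the CD3 chains. ZAP70 then docks and phosphorylates LAT, the scaffold for the downstream enzymes. These transcripts mark T cells, while a B220 enrichment selects for B lineage cells.

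All 5 arrays are labelled as bone marrow cells, but they fell into 2 sets and 3 of them went against that label, which bears on every value below. The median signal of the 24 poly-A control probe sets, which carry no mouse RNA, was 136 and 249 for KA/KA 2 and KA/KA 3 and 46.9 for WT 2. For KA/KA 1 it was 11897 and for WT 1 it was 7305. All 8 lung epithelial markers were higher on the first 3 arrays by at least 1 log2 unit without overlap, and all 9 measured B lineage markers were lower by the same rule. Sftpc, the surfactant protein C gene of lung alveoli, read 15.00 and 14.99 log2 units on KA/KA 2 and KA/KA 3 and 14.04 on WT 2, against 6.53 on KA/KA 1 and 5.97 on WT 1. The sets are called lung-like and marrow-like below. They were defined from control signals of these arrays and not from the labels, so differences between them are described without a test. Values are log2(signal + 16), written as log2 units, on which a signal of 0 reads 4, and a fold of dim genes is understated. The median probe set read 7.13 to 7.17 on the lung-like arrays and 6.80 to 6.81 on the marrow-like arrays.

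**Figure D1:**
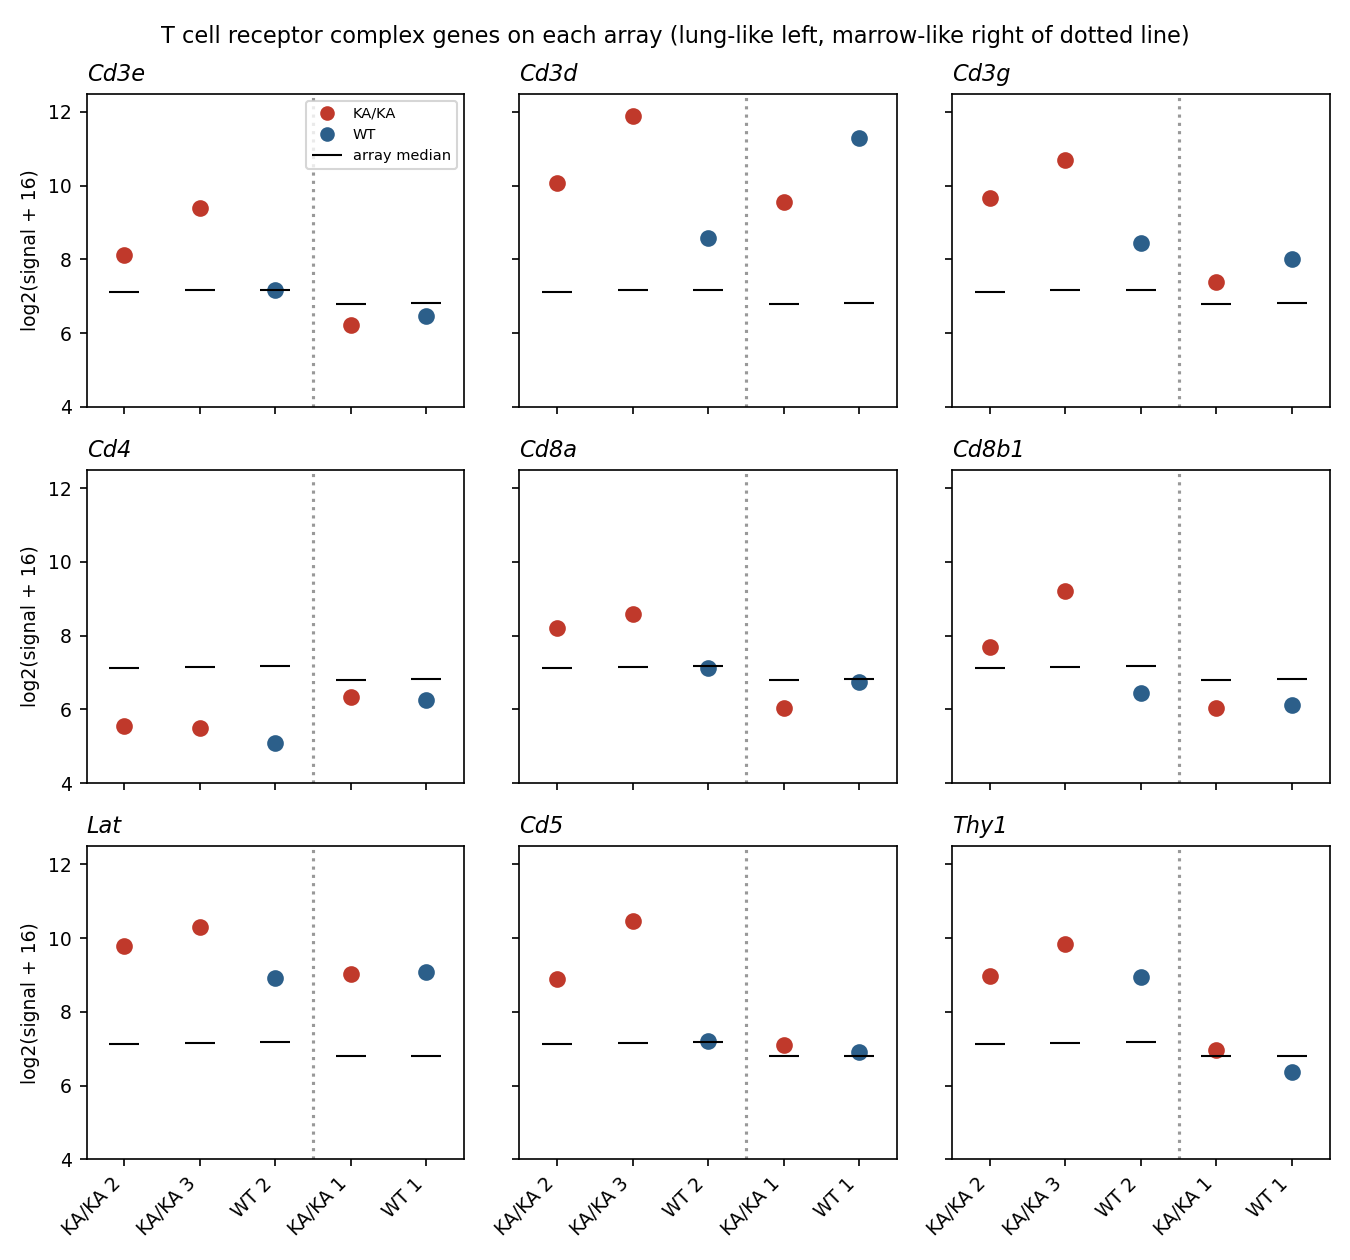
Level of each gene, as log2(signal + 16) of its probe set of highest mean, on each of the 5 arrays. Red points are KA/KA arrays, blue points are WT arrays, black dashes are the median of all probe sets on the array, and the dotted line divides the lung-like arrays (left) from the marrow-like arrays (right). Cd5 stands at 8.89 and 10.46 on KA/KA 2 and KA/KA 3 and near the array median on the other arrays.

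By their median, T cell receptor complex genes were brightest on KA/KA 3 and next on KA/KA 2 and were dimmer on the other 3 arrays. The median of the 9 genes was 8.89 and 9.83 on KA/KA 2 and KA/KA 3, against 7.21 on WT 2. On the marrow-like arrays it was 6.96 on KA/KA 1 and 6.75 on WT 1, close to the median probe set. Cd3d, Cd3g, Lat and Cd5 lay at or above the array median on all 5 arrays, Cd4 lay below it on all 5, and the other 4 genes passed it on some. A lower signal in such bulk RNA can come from fewer T cells or from less RNA per cell, and these cannot be told apart.

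The CD3 chains form the signalling part of the receptor. Cd3e (probe set 1422105_at) read 8.12 and 9.38 on KA/KA 2 and KA/KA 3, against 7.18 on WT 2. It read 6.21 on KA/KA 1 and 6.46 on WT 1, both below the array median. Cd3g (1419178_at) ran the same way, with 9.65 and 10.70 on KA/KA 2 and KA/KA 3, against 8.45 on WT 2. On the marrow-like pair Cd3g read 7.39 on KA/KA 1 and 8.01 on WT 1. Both genes were higher on every lung-like array than on either marrow-like array, by 1.89 log2 units for Cd3e and 1.90 for Cd3g between the set means.

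Cd3d (1422828_at) did not follow its partners in this respect. It read 10.08 and 11.88 on KA/KA 2 and KA/KA 3, against 8.59 on WT 2. On the marrow-like pair it read 9.56 on KA/KA 1 and 11.29 on WT 1, so the sets overlapped and the lung-like mean was 0.25 log2 units lower. That direction rests on single arrays: the lung-like mean was 0.62 higher without WT 1 and 0.55 higher without WT 2, and the difference was -1.11 without KA/KA 1 and -1.09 without KA/KA 3. The WT 1 value was the second highest of the 5 and lay at the 93.3rd percentile of that array. Within an array, the Cd3d reading exceeded that of Cd3g by 0.42 and 1.17 log2 units on KA/KA 2 and KA/KA 3 and by 0.14 on WT 2. On KA/KA 1 it did so by 2.17 and on WT 1 by 3.28. Levels of different probe sets cannot be set against each other, but the shift of this quantity between arrays shows that the chains differed unequally between the sets. Cd3g minus Cd3e stayed within 1.18 to 1.55 log2 units on all 5 arrays. Of 11 measured NK cell and cytotoxic genes, 6 were lower on the lung-like arrays by 1 log2 unit or more without overlap. Of all genes, 10.4% met this rule. Gzmb was higher on the lung-like arrays by 0.86 without overlap. The summed signal of the 11 was 1869 and 2640 on KA/KA 2 and KA/KA 3 and 2662 on WT 2, against 4957 on KA/KA 1 and 6735 on WT 1. Their part in the Cd3d signal was not tested.

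The CD3 genes lie together on chromosome 9, and RefSeq (GRCm38.p6) places the start sites of Cd3g and Cd3d 1355 bases apart on opposite strands. The 250 bases before each start are shown because Cd3g and Cd3d are so close and yet read unequally between the sets. The windows are chr9:45009612-45009861 (minus strand) for Cd3e, chr9:44981536-44981785 (plus strand) for Cd3d and chr9:44980432-44980681 (minus strand) for Cd3g. Capitals mark matches on either strand to the letters of 5 motifs that T lineage transcription factors read. The E-box of the E proteins was searched as CAGGTG. The core of the ETS factors was searched as AGGAAG. The RUNX site was searched as TGTGGT. The GATA site was searched as AGATAA. The site of TCF and LEF factors was searched as CTTTGA.
Cd3e: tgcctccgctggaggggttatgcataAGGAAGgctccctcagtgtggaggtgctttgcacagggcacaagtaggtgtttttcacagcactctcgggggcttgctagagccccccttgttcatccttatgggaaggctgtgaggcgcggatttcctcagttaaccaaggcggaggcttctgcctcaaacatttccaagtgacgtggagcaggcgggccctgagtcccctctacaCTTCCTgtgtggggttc
Cd3d: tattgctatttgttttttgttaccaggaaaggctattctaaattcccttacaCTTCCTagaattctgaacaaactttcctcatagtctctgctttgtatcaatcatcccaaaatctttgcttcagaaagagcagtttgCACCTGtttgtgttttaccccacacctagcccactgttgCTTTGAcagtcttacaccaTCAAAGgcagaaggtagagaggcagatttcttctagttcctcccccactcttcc
Cd3g: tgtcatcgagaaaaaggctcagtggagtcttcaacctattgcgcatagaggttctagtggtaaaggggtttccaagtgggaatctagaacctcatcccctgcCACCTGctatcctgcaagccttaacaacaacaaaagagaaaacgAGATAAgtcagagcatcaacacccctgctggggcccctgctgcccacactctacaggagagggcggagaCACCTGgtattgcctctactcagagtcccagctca
Cd3e held 2 ETS matches. Cd3d held 1 E-box, 1 ETS match and 2 TCF and LEF matches, and Cd3g held 2 E-boxes and 1 GATA match. No match overlapped another, and no RUNX match lay in these windows. Over 32851 RefSeq promoter windows of the same length, 17.2% held the E-box, 29.5% the ETS letters, 14% the RUNX letters, 9.99% the GATA letters and 13.8% the TCF and LEF letters. A match describes the letters only. RefSeq promoters were given for 7 of the 10 listed genes.

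Among the co-receptors, the CD8 genes followed the CD3 chains and Cd4 did not. Cd8b1 (1426170_a_at), the beta chain of the CD8 heterodimer of conventional cytotoxic T cells, read 7.70 and 9.20 on KA/KA 2 and KA/KA 3, against 6.44 on WT 2. On the marrow-like pair it read 6.04 on KA/KA 1 and 6.12 on WT 1. Cd8a (1425335_at), the alpha chain, read 8.20 and 8.58 on KA/KA 2 and KA/KA 3, against 7.12 on WT 2, with 6.04 on KA/KA 1 and 6.75 on WT 1. For these 2 probe sets the array sets did not overlap, and WT 2 was the lowest of the lung-like arrays.

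Cd8a had 5 probe sets, which did not all run together. Inside the lung-like set, probe sets 1444078_at and 1451673_at resembled the one above, at 1.05 and 1.24 log2 units higher on KA/KA 2 than on WT 2 and 1.98 and 1.29 higher on KA/KA 3. Between the array sets, however, all 4 other Cd8a probe sets overlapped. Probe set 1440164_x_at read 7.51 and 6.97 on KA/KA 2 and KA/KA 3, against 7.46 on WT 2, and so showed no such difference. Probe set 1440811_x_at stood out on KA/KA 3 only, at 6.86 against 4.44 on both KA/KA 2 and WT 2. For KA/KA 1 minus WT 1 these 2 probe sets differed by 1.13 and 1.24, while the other 3 differed by -0.70, -0.66 and -0.084. The mean of all 5 probe sets turned that difference to 0.19. An x in these names marks probes that may also match other transcripts. CD8 alpha is carried by some dendritic cells too. Type 1 dendritic cell genes, 5 measured of 6, summed to a signal of 1375 on KA/KA 2, 1748 on KA/KA 3 and 1383 on WT 2. On KA/KA 1 the sum was 652 and on WT 1 it was 530. Zbtb46 was the brightest of them on KA/KA 3 and WT 2 (9.69 and 9.42), while Xcr1 read 5.45 to 6.78 over the 5 arrays. The part of these genes in the Cd8a reading was not tested.

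**Figure D2:**
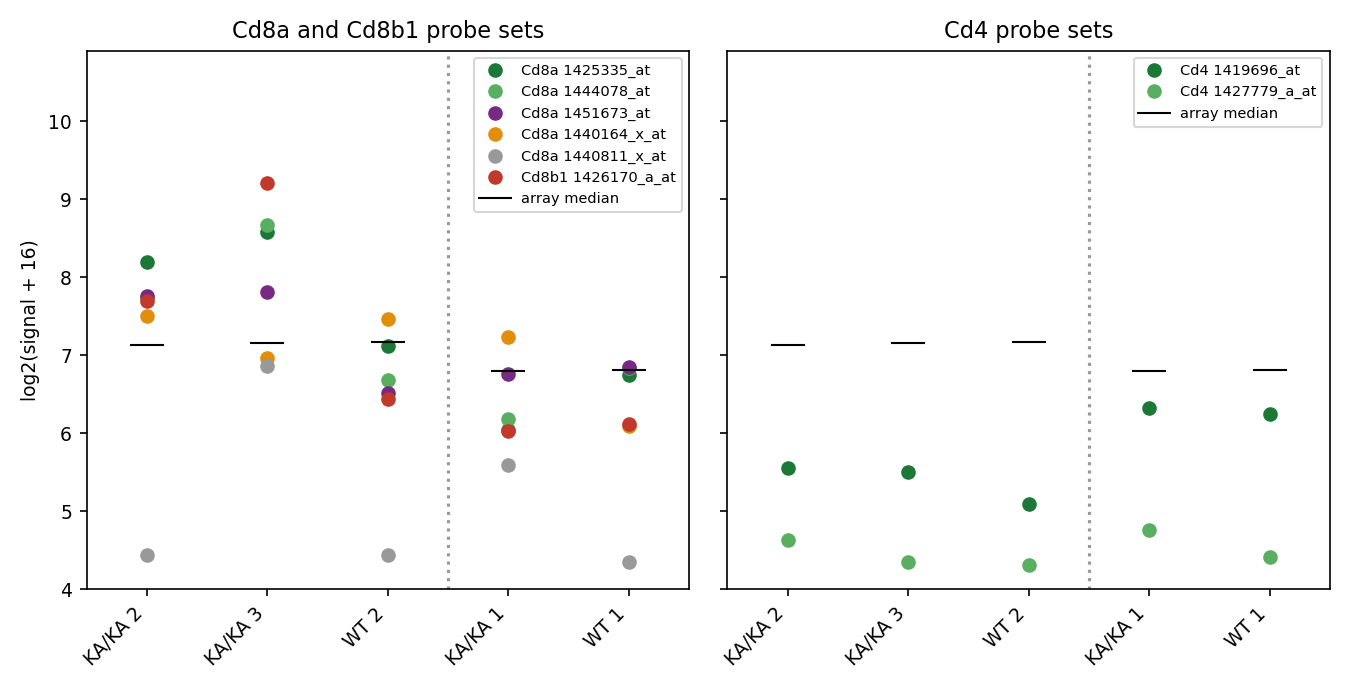
Every probe set of Cd8a and Cd8b1 (left) and Cd4 (right) on each array, as log2(signal + 16). Colours mark probe sets, black dashes the array median, and the dotted line divides lung-like from marrow-like arrays. Cd4 probe sets lie below the array median on all 5 arrays, and 3 of the 5 Cd8a probe sets are higher on KA/KA 2 and KA/KA 3 than on WT 2 by more than 1 log2 unit.

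Cd4 encodes the co-receptor of helper T cells. Its brighter probe set (1419696_at) read 5.56 and 5.50 on KA/KA 2 and KA/KA 3, against 5.09 on WT 2, between the 16.5th and 22.9th percentile of those arrays. On KA/KA 1 and WT 1 it read 6.33 and 6.25, so the lung-like mean was 0.90 log2 units lower and the sets did not overlap. The other probe set (1427779_a_at) read 4.31 to 4.76 on all arrays, close to the lowest possible reading. At such levels the size of a difference depends on the constant added to the signal, and no change of Cd4 can be read. Plasmacytoid dendritic cells also carry CD4 in mice. Signals of the 8 genes listed for that cell type summed to 10605 on KA/KA 2, 8954 on KA/KA 3 and 9134 on WT 2. On KA/KA 1 the sum was 38720 and on WT 1 it was 46913. Bright genes weigh most in it, such as Spib (13.39) and Ly6d (13.26) on KA/KA 1, where Siglech read 10.3. On KA/KA 2, KA/KA 3 and WT 2 Siglech read 6.85, 4.88 and 6.87. The sum was not assigned to that cell type alone, and its part in the Cd4 reading was not tested.

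Lat and Cd5 act on the receptor's signal from inside and outside. Lat (1460651_at), the membrane scaffold that ZAP70 phosphorylates, read 9.78 and 10.31 on KA/KA 2 and KA/KA 3, against 8.91 on WT 2. It read 9.02 on KA/KA 1 and 9.08 on WT 1, so the WT 2 value lay below both marrow-like values and the array sets overlapped. Cd5 (1418353_at), which dampens receptor signalling and is also found on B-1a cells, read 8.89 and 10.46 on KA/KA 2 and KA/KA 3, against 7.21 on WT 2. It read 7.11 on KA/KA 1 and 6.92 on WT 1. The 5 listed B-1a genes differed by a median of -0.20 and 0.53 log2 units (KA/KA 2 and KA/KA 3 minus WT 2), and their part in the Cd5 reading was not tested.

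Thy1 (1423135_at), a surface protein of T cells, separated the array sets more than any other of the 9 genes and the lung-like genotypes less than most. It read 8.97 and 9.83 on KA/KA 2 and KA/KA 3, against 8.95 on WT 2, so KA/KA 2 and WT 2 were almost equal. On KA/KA 1 and WT 1 it read 6.96 and 6.36. The lung-like mean was 2.59 log2 units higher. Thy1 is also carried by fibroblasts, whose 6 listed genes summed to a signal of 51857 and 20638 on KA/KA 2 and KA/KA 3 and 32780 on WT 2, against 3046 on KA/KA 1 and 2612 on WT 1. Their part in the Thy1 reading was not tested.

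Between the array sets, 6 of the 9 genes (Cd3e, Cd3g, Cd8a, Cd8b1, Cd5 and Thy1) were higher on the lung-like arrays by 1 log2 unit or more without overlap, where 20.9% of all genes met this rule. Cd8a missed the 1 log2 unit with the mean of its probe sets (0.85), and Cd8b1 missed it without KA/KA 3 (0.99). Without a minimum size, the same 6 genes were higher without overlap, as were 33.3% of all genes. None was lower by 1 log2 unit, as 10.4% of all genes were. Cd4, at -0.90, moved to -1.21 with quantile normalisation and to -1.25 with median centring or a pseudocount of 1. The median difference of the 9 genes was 1.70 log2 units, against 0.14 over all genes. The median array level itself was 0.35 log2 units higher on the lung-like arrays, and centring each array on its median brought the 9 genes to 1.35. Without KA/KA 3 the median was 1.03, and without WT 2 it was 2.37. Relative to the array medians, Cd5 and Cd8b1 overlapped between the sets. By percentile, Cd5 stood at the 50.6th on WT 2, below the 54.0th on KA/KA 1 and the 51.5th on WT 1. Cd8b1 lay further below the array median on WT 2 (6.44, array median 7.17) than on WT 1 (6.12, array median 6.81).

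Inside the lung-like set, all 9 genes were higher on both KA/KA arrays than on WT 2, as were 31.8% of all genes. This count includes Cd4, too dim for a change to be read, and Thy1, almost equal on KA/KA 2 and WT 2. The 2 comparisons share WT 2, which is a single array. For 5 genes (Cd3d, Cd3g, Cd8a, Cd8b1 and Cd5) both differences reached 1 log2 unit, where 3.51% of all genes did so. Differences for KA/KA 2 minus WT 2 ran from 0.02 for Thy1 to 1.67 for Cd5, with a median of 1.08 (all genes -0.04), and 5 of 9 reached 1 log2 unit (9.2% of all genes). None of the 9 was lower by as much (9.97% of all genes). Those for KA/KA 3 minus WT 2 ran from 0.41 for Cd4 to 3.29 for Cd3d, with a median of 2.20 (all genes -0.03), and 7 of 9 reached 1 log2 unit (6.48% of all genes). Again none was lower by as much (6.27% of all genes). For 8 of the 9 genes KA/KA 3 was the highest and WT 2 the lowest of the lung-like arrays, an order that 14.1% of all genes showed. Cd4 was the exception.

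**Figure D3:**
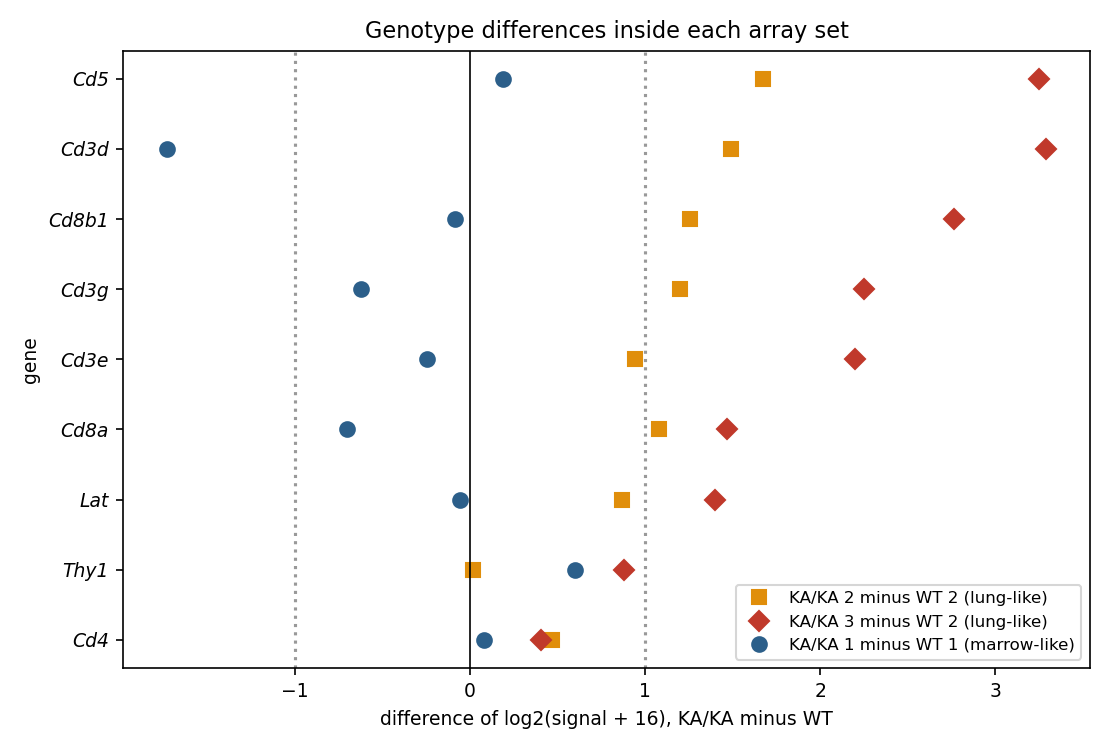
Difference of log2(signal + 16), KA/KA minus WT, for each gene inside each array set. Squares are KA/KA 2 minus WT 2, diamonds KA/KA 3 minus WT 2 and circles KA/KA 1 minus WT 1, each between 1 array and 1, and dotted lines mark 1 log2 unit. Squares and diamonds lie at or right of 0 for all 9 genes, up to 3.29 for Cd3d, while its circle lies at -1.73.

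The lung-like differences did not pass a test over all probe sets. limma on KA/KA 2 and KA/KA 3 against WT 2, in which the single WT array is assumed to vary like the KA/KA arrays, called 0 of 45037 probe sets (0%) at an adjusted p of 0.05, and 2439 had an unadjusted p under 0.05. Cd5 stood at 2.46 ± 0.76 log2 units (± SE, limma adjusted p = 0.903), Cd3d at 2.39 ± 0.83, Cd8b1 at 2.01 ± 0.77, Cd3g at 1.73 ± 0.55, Cd3e at 1.57 ± 0.66, Cd8a at 1.27 ± 0.42 and Lat at 1.13 ± 0.38. Unadjusted, 6 of the 14 probe sets of these genes (Cd3d, Cd3g, Lat, Cd5 and 2 of Cd8a) lay under 0.05, as did 5.42% of all probe sets. With 2 arrays against 1, an exact permutation test could not pass 0.05 and was not run.

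In the marrow-like pair the genotypes were close for most of the 9 genes. KA/KA 1 was higher than WT 1 for 3 of them and lower for 6, where 54.3% of all genes were higher, and the median difference was -0.087 log2 units (all genes 0.05). Only Cd3d passed 1 log2 unit, at -1.73, where 3.65% of all genes were lower by as much. None of the 9 was higher by 1 log2 unit, which 5.03% of all genes were. Cd8a (-0.70), Cd3g (-0.62), Cd3e (-0.25), Cd8b1 (-0.087) and Lat (-0.056) were lower, and Thy1 (0.60), Cd5 (0.19) and Cd4 (0.08) higher. The 6 genes that were lower here were all higher on both lung-like KA/KA arrays than on WT 2, an arrangement that 16.6% of all genes showed. Cd8a leaves this group when its probe sets are averaged. limma's test of that difference between the sets, the interaction of genotype and array set, called 0 of 45037 probe sets (0%). Unadjusted, 2 of the 14 probe sets of these genes (Cd3d and Cd3g) lay under 0.05, as did 4.65% of all probe sets. The marrow-like comparison is 1 array against 1, with no replicate check.

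Over all 5 arrays, the 9 genes averaged higher in KA/KA than in WT mice, as did 54.2% of all genes, but none of the 14 probe sets passed the test. Cd5 averaged 8.82 ± 1.68 log2 units in KA/KA mice (SD, n = 3) and 7.07 ± 0.21 in WT mice (SD, n = 2). Cd8b1 averaged 7.65 ± 1.59 in KA/KA and 6.28 ± 0.22 in WT mice, and Cd3e 7.91 ± 1.60 in KA/KA and 6.82 ± 0.51 in WT mice. The array sets are mixed in these means, as KA/KA 1 and WT 1 are marrow-like and the others lung-like. For none of the 9 genes did all KA/KA arrays lie above both WT arrays, an order found for 4.97% of all genes. limma over the 5 arrays called 0 of 45037 probe sets (0%), and 568 (1.26%) had an unadjusted p under 0.05. With array set added as a blocking term it also called 0 (0%), and 1439 (3.2%) lay under 0.05 unadjusted. None of the 14 probe sets was among them in either fit. With so few arrays, a count of 0 calls does not show that levels did not differ. Differences in these fits were 1.75 ± 1.00 log2 units for Cd5 (1.49 ± 0.67 with the block), 1.37 ± 0.96 for Cd8b1 (1.11 ± 0.67) and 0.57 ± 1.05 for Cd3d (0.62 ± 0.97). The median of the 9 genes was 0.93 log2 units (all genes 0.04). It was 0.62 with the block, 0.31 without KA/KA 3 and 1.74 without KA/KA 1. Single arrays decided the direction for 3 genes. Cd3d was lower in KA/KA than in WT without KA/KA 3 (-0.12) or WT 2 (-0.79), Thy1 without WT 1 (-0.36), and Cd4 without KA/KA 1 (-0.14) or WT 2 (-0.45).

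Other T cell genes, from lists that name no member of the complex above, were mostly higher on KA/KA inside the lung-like set. Of 12 T cell surface genes 10 were higher on both KA/KA arrays than on WT 2, 5 of them by 1 log2 unit or more, where 31.8% and 3.51% of all genes were, with medians of 0.64 and 1.96 for KA/KA 2 and KA/KA 3. Pdcd1 and Ctla4, which restrain activated T cells, differed most among them on both arrays. Pdcd1 read 8.41 and 8.46 on KA/KA 2 and KA/KA 3, against 4.95 on WT 2, with 6.26 on KA/KA 1 and 5.38 on WT 1. Ctla4 read 9.32 and 9.80 on KA/KA 2 and KA/KA 3, against 6.47 on WT 2, with 5.89 on KA/KA 1 and 4.71 on WT 1. Cd6, a relative of Cd5, read 8.31 and 9.17 on KA/KA 2 and KA/KA 3, against 6.46 on WT 2. Ly9, which B cells express as well, read 6.69 and 6.71 on KA/KA 2 and KA/KA 3, against 4.42 on WT 2, but 10.32 on KA/KA 1 and 10.24 on WT 1.

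Of 27 measured genes of receptor signalling, 22 were higher on both lung-like KA/KA arrays than on WT 2, 9 of them by 1 log2 unit or more (31.8% and 3.51% of all genes), with medians of 0.76 and 1.09. By the rule of 1 log2 unit without overlap, 4 were higher and 7 lower on the lung-like than on the marrow-like arrays, where 20.9% of all genes were higher and 10.4% lower. Rhoh, a small GTPase of blood cells, read 8.42 and 9.08 on KA/KA 2 and KA/KA 3, against 6.32 on WT 2, and 11.06 and 11.45 on KA/KA 1 and WT 1. Lcp2, the adaptor SLP-76 that joins LAT, read 10.16 and 10.64 on KA/KA 2 and KA/KA 3, against 8.54 on WT 2, with 10.77 and 10.54 on KA/KA 1 and WT 1. Ptpn22, a phosphatase that acts on LCK, read 10.02 and 10.82 on KA/KA 2 and KA/KA 3, against 8.13 on WT 2. Sh2d1a, the adaptor SAP, read 7.06 and 8.68 on KA/KA 2 and KA/KA 3, against 5.82 on WT 2. Many of these are expressed by B cells too. Neither their signal on the marrow-like arrays nor their differences inside the lung-like set can be assigned to T cells. Of the receptor chain list only 4 of 18 symbols were measured, 3 of them higher on both KA/KA arrays, with medians of 0.16 and 0.68. Cd247, the zeta chain, read 8.08 and 9.37 on KA/KA 2 and KA/KA 3, against 7.35 on WT 2. Tcra, named after its values were seen, was dim and read 4.25 and 5.33 on KA/KA 2 and KA/KA 3, against 5.29 on WT 2.

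Among T lineage transcription factors, 7 of 11 measured were higher on both lung-like KA/KA arrays than on WT 2 (31.8% of all genes), with medians of 0.18 and 0.66. Bcl11b, which commits precursors to the T lineage, read 10.04 and 10.12 on KA/KA 2 and KA/KA 3, against 7.57 on WT 2, with 6.28 on KA/KA 1 and 6.93 on WT 1. Klf2, which keeps naive T cells circulating, differed between the 2 KA/KA arrays and read 10.31 and 12.86 on KA/KA 2 and KA/KA 3, against 12.61 on WT 2. It read 12.47 on KA/KA 1 and 12.21 on WT 1, and which cells gave its signal was not tested. Of the genes of naive and recirculating T cells, 6 of 10 measured were higher on both (31.8% of all genes), with medians of 0.36 and 1.30. Ms4a4b differed most among them and read 8.23 and 10.96 on KA/KA 2 and KA/KA 3, against 4.18 on WT 2. It was higher in the marrow-like pair too, at 8.95 on KA/KA 1 and 4.19 on WT 1. Il7r, the interleukin 7 receptor that B cell precursors also need, read 12.63 and 12.09 on KA/KA 2 and KA/KA 3, against 9.70 on WT 2, with 12.62 on KA/KA 1 and 12.47 on WT 1. No member of any of these lists passed limma's test over the 5 arrays, with the block, or inside the lung-like set.

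Markers of other cells did not share one direction inside the lung-like set. NK cell genes were higher on both KA/KA arrays than on WT 2 for 3 of 11, near the 31.8% of all genes, with medians of -0.012 and -0.067 log2 units. Ncr1, an NK cell receptor, read 7.14 and 6.77 on KA/KA 2 and KA/KA 3, against 8.07 on WT 2. Il2rb, an interleukin receptor chain that activated T cells carry too, ran the other way, at 6.17 and 7.33 on KA/KA 2 and KA/KA 3, against 5.18 on WT 2. For lung epithelial genes the count was 5 of 8 (medians 0.13 and 0.18), for B lineage genes 3 of 9 (-0.40 and 0.89), for fibroblast genes 0 of 6 (0.21 and -0.85) and for endothelial genes 0 of 6 (-2.46 and -0.66). Endothelial genes summed to a signal of 7525 and 25652 on KA/KA 2 and KA/KA 3, against 34747 on WT 2. Genes listed for type 2 innate lymphoid cells, which carry Thy1 but not surface CD3, had medians of 2.02 and 0.34 over 5 genes. Arg1 made up most of their signal on KA/KA 2, where it read 14.23, against 8.08 on KA/KA 3 and 6.98 on WT 2. The part of such differences in tissue make-up in the T cell values was not tested.

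**Figure D4:**
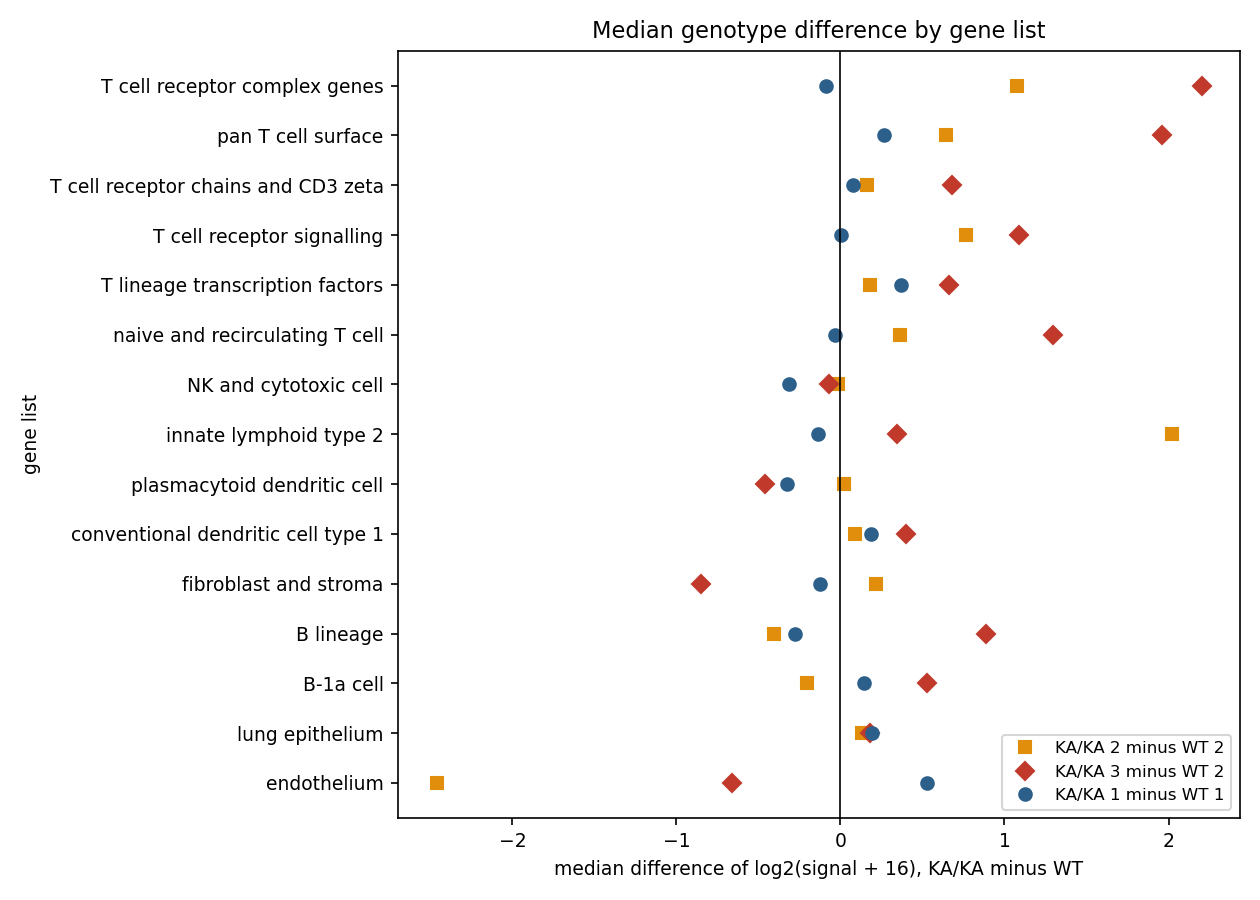
Median difference of log2(signal + 16), KA/KA minus WT, over the measured genes of each list. Squares are KA/KA 2 minus WT 2, diamonds KA/KA 3 minus WT 2 and circles KA/KA 1 minus WT 1. The 9 T cell receptor complex genes have medians of 1.08, 2.20 and -0.09, and endothelial genes have medians of -2.46 and -0.66 against WT 2.

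Genes whose profile over the 5 arrays was most like the mean of the CD3 chains were ranked by the mean absolute difference of profiles, each centred on its own mean. The closest 10 of all other genes were Il2, Trbv1, Il1r2, Il10, Entpd8, Trpm8, Ccl4, Mir155hg, 2410021H03Rik and Cd28, at 0.12 to 0.32 log2 units. Il2 read 5.34 and 6.61 on KA/KA 2 and KA/KA 3, against 4.22 on WT 2, and lay below the array median on every array. Trbv1, annotated to a T cell receptor beta gene, read 10.40 and 11.97 on KA/KA 2 and KA/KA 3, against 9.09 on WT 2. Among the genes of the complex, Cd8b1 lay closest at 0.28, and Cd3e and Cd3g, which set the profile, lay at 0.34 and 0.35. Cd3d, which set it too, lay at 0.69, Thy1 at 0.74 and Cd4 at 1.06. With only 5 arrays, this likeness is a description, and no test was made.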

How the data were processed

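RNA was extracted with Trizol and measured on Affymetrix mouse whole-genome arrays, per the labels' protocols. The authors deposited a table of linear intensity values, with 45101 probe sets per array. The submitters' processing notes name MAS5 without a version, and the mean of an array after trimming 2% at each end was 500. The series text speaks of a log2 transformation, but the values are linear, so log2(signal + 16) was computed here. The genome build was not given in the sources used here. The 64 control probe sets were left out, leaving 45037, of which 34945 had 1 gene symbol, 932 several and 9160 none in the platform annotation.

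Array sets were split at a median poly-A control reading of 10 on the log2 scale. limma 3.58.1 in R 4.3.3 (lmFit, eBayes with trend) was fitted to all 45037 probe sets without a filter, two-sided, with Benjamini-Hochberg adjustment and a threshold of 0.05. The fits were genotype, genotype with the array set as a block, genotype within the lung-like arrays, and the interaction of genotype and array set. Comparisons of 1 array with 1 have no test. Each gene took the values of whichever of its probe sets had the highest mean. All 9 measured genes are named. Of each list at most 4 genes could be named, by size of the lung-like difference. Gzmb, Spib, Xcr1, Tcra and Cd28 were named outside this rule. The genes, lists, motifs and tests were chosen with earlier results of these data known. Alternatives were quantile normalisation, median centring, pseudocounts of 1 and 64, a floor at the 20th percentile, a filter on dim probe sets, eBayes without trend, other choices of probe set, the replicate block and leaving out each array. The number of arrays limits the precision.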

Additional observations from a re-analysis of the deposited data

Results flagged for a closer look

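For 6 of the 9 genes the genotype difference had one sign in the marrow-like pair and the opposite sign on both lung-like KA/KA arrays, an arrangement that 16.6% of all genes showed. With the mean of all probe sets Cd8a no longer shows it, since KA/KA 1 minus WT 1 is then 0.19 log2 units. KA/KA 1 minus WT 1 was -1.73 log2 units for Cd3d, -0.70 for Cd8a, -0.62 for Cd3g, -0.25 for Cd3e, -0.087 for Cd8b1 and -0.056 for Lat, while the same genes were higher on KA/KA 2 and KA/KA 3 than on WT 2. The difference between the sets was itself tested with limma's interaction term, which called 0 of 45037 probe sets (0%), with 2093 at an unadjusted p under 0.05. Cd3d had the largest interaction of the 9 genes at 4.12 ± 1.25 log2 units (± SE, limma adjusted p = 0.893), and Cd3g followed at 2.35 ± 0.85. Only the probe sets of Cd3d and Cd3g lay under an unadjusted p of 0.05, at 0.029 and 0.049 in limma. The marrow-like side of this contrast rests on 1 array per genotype.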

How the results depend on the processing

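Under the 7 changes of scale or probe set that were tried, the median difference of the 9 genes stayed between 0.87 and 1.18 log2 units for KA/KA 2 minus WT 2, 1.89 and 2.32 for KA/KA 3 minus WT 2, -0.15 and -0.05 for KA/KA 1 minus WT 1, and 1.28 and 1.92 for lung-like minus marrow-like arrays. The choice of probe sets without shared suffixes kept the same probe set for every gene, so it could not move these medians. The floor left them unchanged. With arrays left out in turn, the lung-like minus marrow-like median ran from 1.03 to 2.37 and the KA/KA minus WT median from 0.31 to 1.74. limma over the 5 arrays called 0 probe sets in each of these settings, and with array set added as a blocking term 0 to 2, the 2 calls coming without KA/KA 3. KA/KA minus WT for Cd4 was -0.00427 with a floor, -0.14 without KA/KA 1 and -0.45 without WT 2. For Cd3d it was -0.12 without KA/KA 3 and -0.79 without WT 2, and for Thy1 it was -0.36 without WT 1. With arrays left out in turn, Cd3d ran from -0.79 to 1.92, Cd4 from -0.45 to 0.70 and Thy1 from -0.36 to 2.23. Each array left out also changes the mix of lung-like and marrow-like arrays in its genotype. With the array set as a block Thy1 stood at 0.51, and the part of that mix was not tested. With the replicate number as a block, limma called 2 probe sets, Cd3d stood at -0.12 and the median of the 9 genes at 0.31. Deviations from the genotype means correlated across probe sets at 0.79 for number 1 and 0.52 for number 2. Number 1 is the marrow-like pair, and KA/KA 2 and WT 2 are both lung-like. These correlations therefore cannot tell a pairing by number from the array sets. The labels give no shared origin for a number, and the third KA/KA array has no partner, so the block result is that of the remaining 4 arrays. Signals near the lowest readings, as for Cd4, limit what can be read.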

Other observations

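Probe sets annotated to T cell receptor variable genes, together with that of Tcra, were looked at after the values were seen. They are described without a test. Of 17 such probe sets, 4 lay at or above the array median on all 5 arrays, and all 4 belong to alpha or beta chain genes. The 3 bright Trav9d-3 probe sets read 11.19, 10.03 and 11.17 on KA/KA 2 and 12.26, 11.07 and 11.99 on KA/KA 3, against 9.62, 8.59 and 9.63 on WT 2. On the marrow-like pair they read 9.20, 8.18 and 8.99 on KA/KA 1 and 8.78, 7.20 and 8.32 on WT 1. These values were higher on both lung-like KA/KA arrays, as for the CD3 chains. By their suffixes these probe sets are shared between several receptor transcripts, so the values cannot be assigned to 1 variable gene.

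Gamma chain probe sets ran the other way inside the lung-like set. Trgv4 (1450521_a_at), from the gamma chain of gamma-delta T cells, read 6.75 and 7.18 on KA/KA 2 and KA/KA 3, against 8.16 on WT 2, with 6.73 on KA/KA 1 and 6.65 on WT 1. Another Trgv4 probe set (1422189_x_at) read 7.04 and 7.75 on KA/KA 2 and KA/KA 3, against 7.97 on WT 2. The bright Trav9d-3 and the Trgv4 probe sets thus differed in opposite directions, each against the single WT 2 array. Dimmer alpha chain probe sets did not share one direction: Trav12n-2 differed by -1.23 and 0.067 log2 units and Trav12n-1 by 0.49 and -0.20 (KA/KA 2 and KA/KA 3 minus WT 2). None of this was tested.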
